A study of Gallus gallus with 24 samples.

Results

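The actin filament and microvillus regulators described here are 8 genes: FMN1, PLS3, VIL1, EZR, WDR1, CFL2, CDC42 and RHOA. They were taken as every probe set of the array whose platform annotation gives one of these symbols and no other. This gave 16 of the 38439 probe sets used, and 8 of the 13009 gene symbols that they carry. A probe set is a group of short probes designed against one transcript, and its signal is a brightness in arbitrary units that can be compared between arrays but not between probe sets. EZR and RHOA had 3 probe sets each, FMN1, PLS3, WDR1 and CFL2 had 2 each, and VIL1 and CDC42 had 1 each. Of the 16, 15 lay in the brighter 50% of probe sets at both ages and entered the tests. The other, a further EZR probe set, read between 2.16 and 50.8 and was not tested. Where a gene has several, they are told apart here by their mean signal, as the brighter and the dimmer.

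The retinal pigment epithelium (RPE) is a single sheet of pigmented cells between the neural retina and the choroid. Its apical microvilli reach between the photoreceptor outer segments and are built on parallel bundles of actin filaments. Formins such as FMN1 start and lengthen unbranched filaments, plastin-3 (PLS3) and villin (VIL1) bundle them, and ezrin (EZR) ties them to the plasma membrane. Cofilins (CFL2) cut old filaments and WDR1, also known as actin-interacting protein AIP1, speeds that disassembly, while the small GTPases CDC42 and RHOA switch on formins, branching factors and myosin contraction.

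The RNA came from RPE cells of White Leghorn chick embryos, taken on embryonic day 14 (E14) or day 7 (E7) and cultured on permeable filters. The apical medium was the serum-free medium SF3 or rcSF3, which is SF3 conditioned by neural retinas of E14 embryos, and fetal bovine serum was either added to the basal chamber or left out. At each age this gave the media rcSF3+serum, rcSF3, SF3+serum and SF3, with 3 arrays per group and 24 in all. All 8 groups shared the basal medium with pituitary extract, and no group was uncultured tissue. The groups were read from a code in each label, and the code CM-SER-SER was read as rcSF3+serum because it was the medium left without a code of its own. Arrays of one group came from separate platings pooled over filters, and p-values measure the spread between these arrays.

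The 24 arrays were scaled to one level, and their median signals lay between 89.3 and 121. Arrays of the same group correlated at 0.966 to 0.983 over the log2 signals, and arrays of other groups of the same age at 0.919 to 0.977. Of 14 RPE markers 13 were on the array and all 13 were in the brighter 50%, with summed signals between 175900 and 236487 over the 24 arrays. That sum differed by medium. At E14 it was 175900 to 206108 in rcSF3+serum, 226087 to 236487 in rcSF3, 180773 to 204405 in SF3+serum and 200624 to 215352 in SF3. At E7 it was 193156 to 212795, 224060 to 231431, 187560 to 198025 and 192076 to 209620 in the same order. The part of that sum in the results was not tested. Its members did not all move together. From E7 SF3 to E7 SF3+serum, mean STRA6 went from 3035 to 15336 and PMEL from 17840 to 21709. Over the same step DCT went from 38067 to 30890 and RLBP1 from 37980 to 31287. In such bulk RNA, fewer cells of a type and less RNA per cell cannot be told apart. Unless said otherwise, a difference below is a difference of mean log2 signal with its standard error (SE), and an adjusted p is limma's with Benjamini-Hochberg adjustment over all probe sets tested. A probe set was called at an adjusted p under 0.05.

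**Figure D1:**
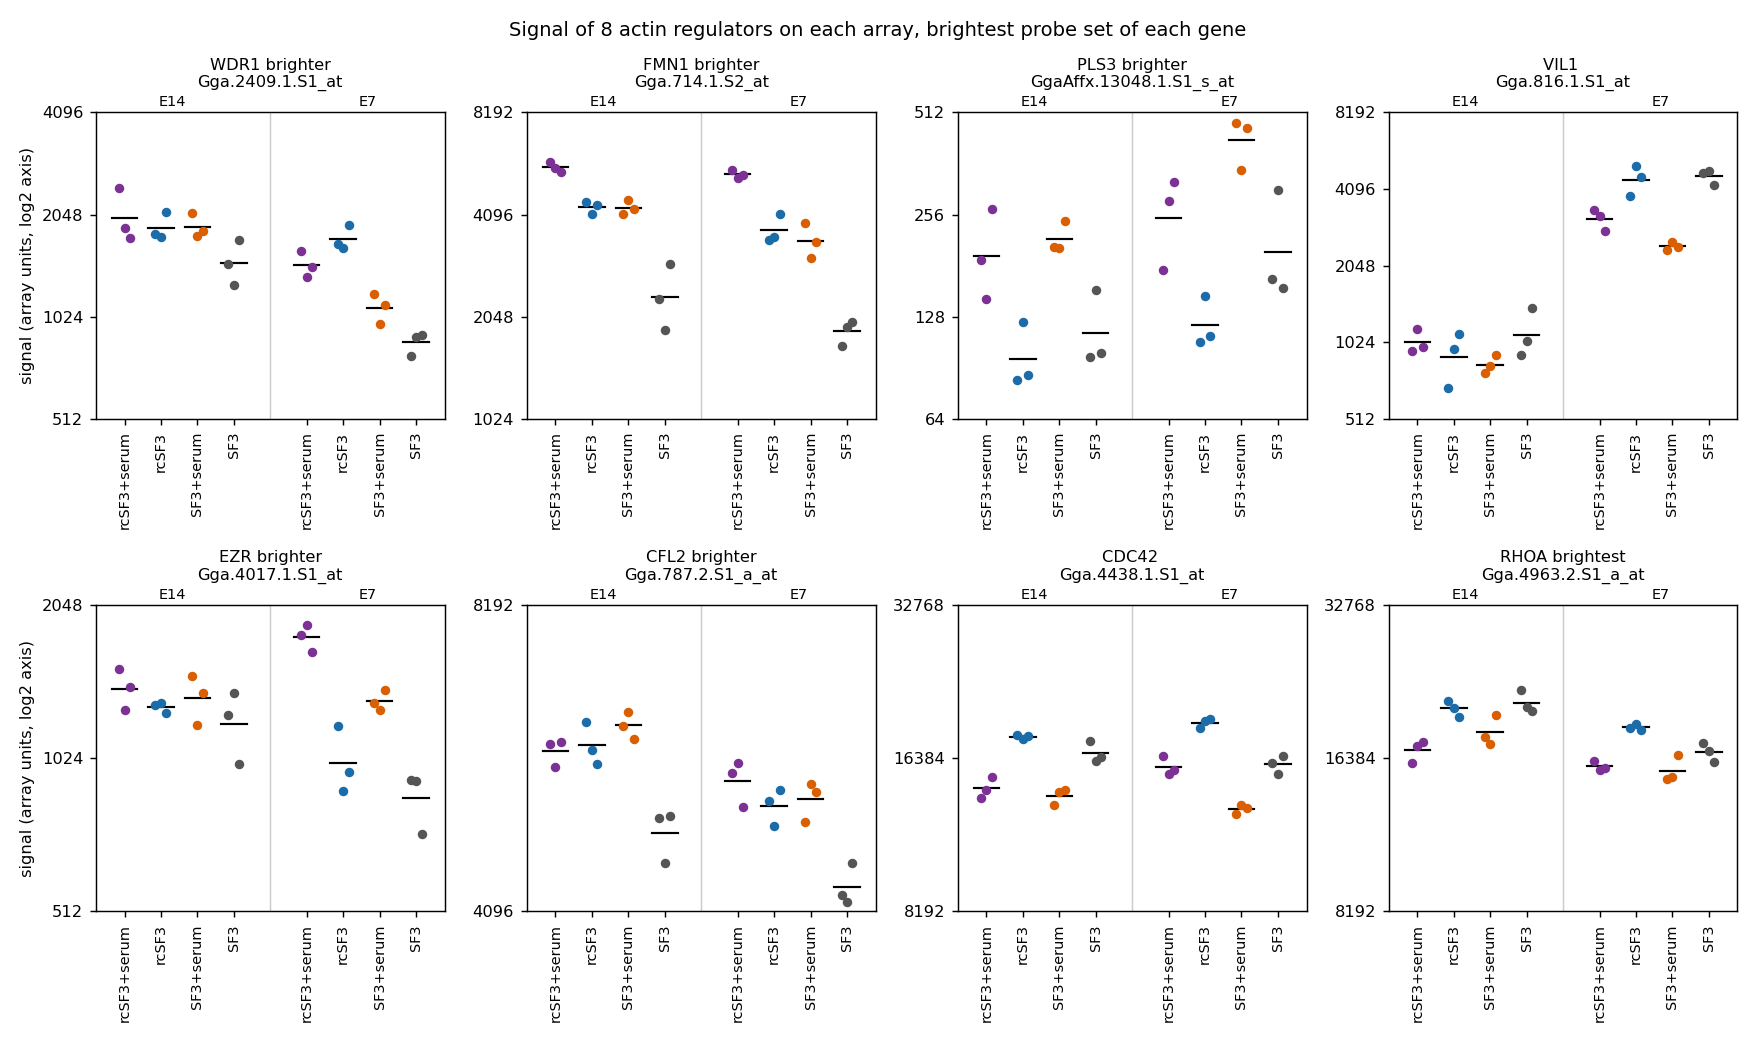
Signal on a log2 axis, in arbitrary units, of the brightest kept probe set of each of the 8 genes on the 24 arrays. Each dot is 1 array, the black line is the geometric mean of the 3 arrays of a group, and the media run from rcSF3+serum to SF3 within E14 and then E7. FMN1 was lowest in SF3 at both ages, PLS3 was lowest in rcSF3 at E14, and VIL1 at E7 stood above every E14 array.

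Most of these probe sets differed between media at both ages. Among E14 cultures 11 of the 15 probe sets differed somewhere among the 4 media, where 40.1% of all probe sets tested did, and among E7 cultures 15 of 15 did, where 60.9% did. At E14 no VIL1 or EZR probe set was among them, and WDR1 was there only by its dimmer probe set (adjusted p 0.0365). That WDR1 call was lost in 11 of 20 alternative fits, and the call of the middle RHOA probe set (adjusted p 0.0367) in 7 of 20. Conditioning by neural retina, given as rcSF3 against SF3, raised 3 and lowered 1 of the 15 at E14 (background 9.57%), and raised 7 and lowered 2 at E7 (background 26.8%). Serum, given as SF3+serum against SF3, raised 6 and lowered 3 at E14 (background 23.7%), and raised 8 and lowered 4 at E7 (background 38.3%). On top of serum, rcSF3+serum against SF3+serum moved 0 of the 15 past limma's threshold at E14 (background 2.81%), with 2 at an unadjusted p under 0.05 and 0 by an unmoderated analysis of variance. That background is for the adjusted threshold, and none is given here for the unadjusted p. At E7 the same comparison raised 6 and lowered 1 (background 21%). On top of conditioning, rcSF3+serum against rcSF3 raised 3 and lowered 3 at E14 (background 22.8%), and raised 5 and lowered 5 at E7 (background 30.8%). At E14 the 11 of 15, and the probe sets raised by serum in SF3 and in rcSF3, include the dimmer PLS3 probe set. It was kept at E14 largely through the media with serum, which limits those calls. Comparisons that share a group, such as both comparisons with SF3, are not independent of each other. The members were chosen with earlier results of these arrays known. A count above its background is therefore no test of the members as a set.

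Whether the responses to serum and to conditioning added up was tested as an interaction on the log2 scale. By limma 0 of the 15 were called at E14 (background 0.609%) and 0 at E7 (background 2.14%). At an unadjusted p under 0.05 there were 4 at E14 and 6 at E7, and the unmoderated analysis of variance called 0 at both ages. Both backgrounds are shares at the adjusted threshold. The share of all probe sets at the unadjusted p is not given here, so the 4 and 6 cannot be set against one. The labels number the cultures within each medium. Cultures with the same number deviated together within a serum state at E14, and at E7 without serum. With the numbers as blocks inside each serum state, the calls at E14 came to 7 in place of 4 for rcSF3 against SF3, to 2 in place of 0 for rcSF3+serum against SF3+serum, and to 2 in place of 0 for the interaction. The same block raised the share of all probe sets called to 15.6%, 7.84% and 2.58% in these 3 comparisons. For rcSF3 against SF3 at E7 it gave 10 calls in place of 9, with 30.9% of all probe sets called. The genes concerned are named below.

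The scaling mattered most where conditioned cultures at E14 were concerned. Centring each array on its median in place of the deposited scaling shifted the median of all probe sets by −0.114 for rcSF3 against SF3 and by −0.21 for rcSF3+serum against SF3+serum at E14, where it then called 0 members higher and 2 lower. It shifted E14 against E7 by −0.125 in rcSF3, where 0 members were then higher and 3 lower, and by −0.2 in rcSF3+serum, with 0 higher and 3 lower. The E14 response to rcSF3 minus that at E7 shifted by −0.187 without serum, with 0 higher and 6 lower, and by −0.206 with serum, with 0 higher and 3 lower. With a smaller shift of 0.0724, median centring gave 9 higher and 1 lower for rcSF3 against SF3 at E7. With one of −0.0765 it gave 2 higher and 3 lower for rcSF3+serum against rcSF3 at E14, where quantile normalization gave 3 and 2. Quantile normalization gave 2 higher and 3 lower for E14 against E7 in rcSF3, and 3 higher and 2 lower in rcSF3+serum. The share of all probe sets called after these scalings is not given here, so these counts describe the members alone.

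**Figure D2:**
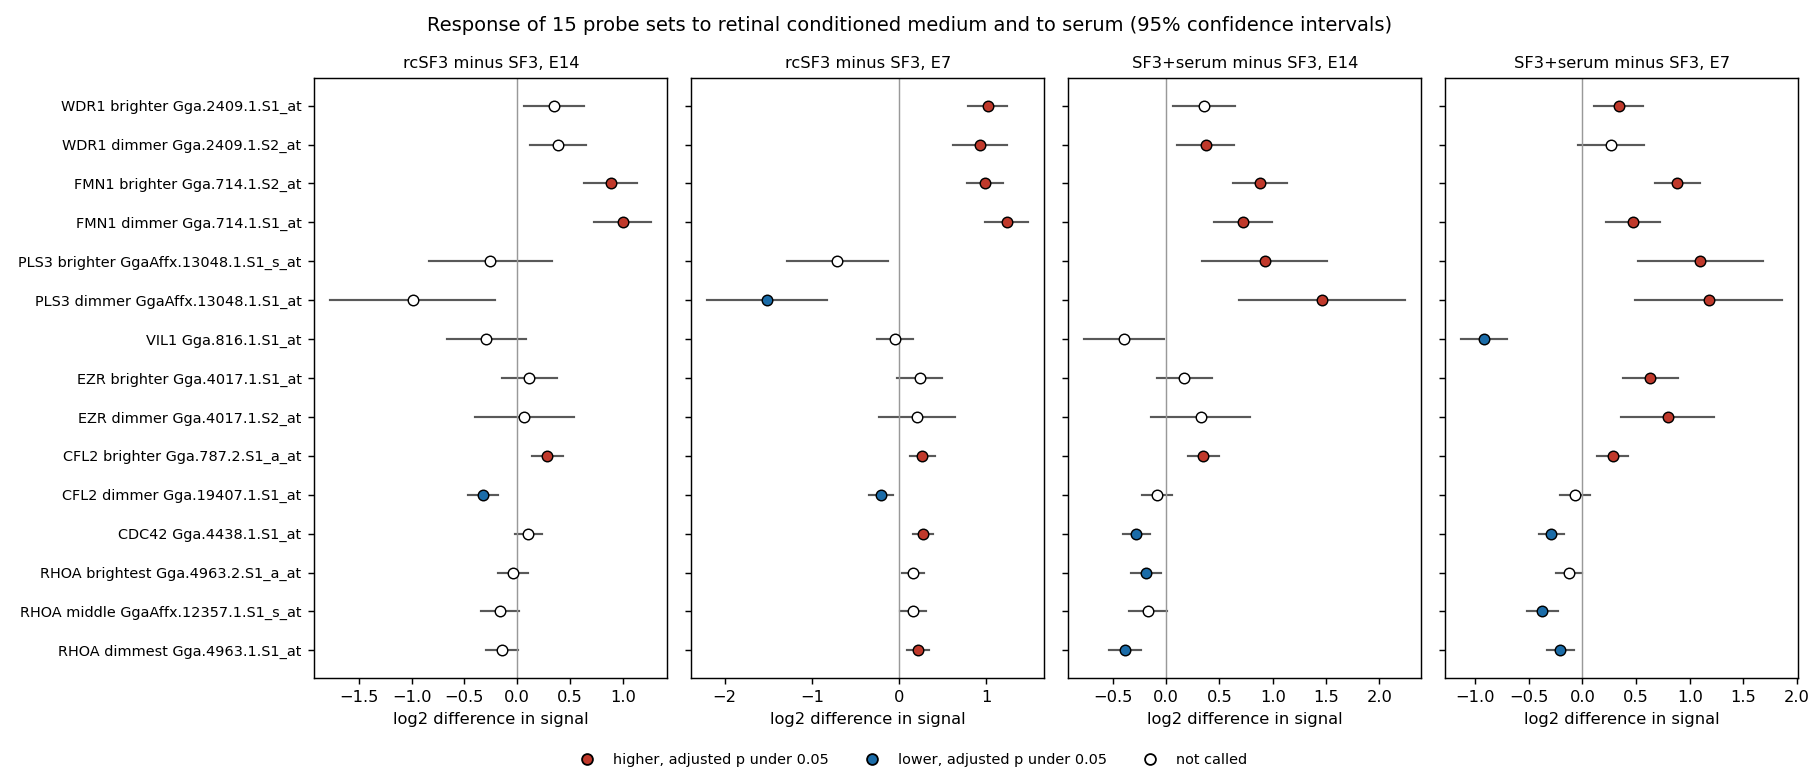
Log2 difference of signal, tested medium minus comparison medium, for the 15 kept probe sets at E14 and E7. Dots are the fitted differences, bars their 95% confidence intervals, red marks a call as higher, blue a call as lower and white no call. The FMN1 probe sets stood about 1 log2 unit above 0 for rcSF3 against SF3, and RHOA and CDC42 stood below 0 for serum at both ages.

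The formin FMN1, which nucleates the straight filaments of junctions and protrusions, rose with rcSF3 and with serum at both ages. In E14 cultures the brighter of its 2 probe sets read 5831, 5634 and 5457 in rcSF3+serum, 4456, 4112 and 4362 in rcSF3, 4099, 4533 and 4250.5 in SF3+serum, and 2314, 1874 and 2930.0 in SF3. In E7 cultures it read 5541, 5252 and 5371 in rcSF3+serum, 3442, 3511 and 4119 in rcSF3, 3863, 3051 and 3403 in SF3+serum, and 1684, 1915 and 1976 in SF3. SF3 alone was lowest at both ages, its 3 arrays lay below every array of the other 3 media of the same age, and the arrays of rcSF3+serum lay above all others. Against SF3, rcSF3 raised it by 0.88 (SE 0.12, adjusted p 0.000341), 1.85-fold, at E14, and by 0.99 (SE 0.10, adjusted p 3.34e-06), 1.98-fold, at E7. Serum in SF3 raised it by 0.88 (SE 0.12, adjusted p 0.000123), 1.84-fold, at E14, and by 0.88 (SE 0.10, adjusted p 1.06e-05), 1.85-fold, at E7. Adding serum to rcSF3 raised it by 0.39 (SE 0.12, adjusted p 0.0273) at E14 and by 0.55 (SE 0.10, adjusted p 0.000698) at E7. The interaction of serum and rcSF3 was −0.49 (SE 0.17, adjusted p 0.232) at E14 and −0.33 (SE 0.14, adjusted p 0.226) at E7. The E14 value for serum in rcSF3 was not called when any 1 of rcSF3 replicates 2 and 3 or rcSF3+serum replicates 1, 2 and 3 was left out, with an adjusted p of 0.0532 to 0.0869, nor with no filter (adjusted p 0.0504), in the unmoderated analysis of variance (adjusted p 0.0908) or after median centring, where it was 0.31 (adjusted p 0.134).

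The dimmer FMN1 probe set had the same lowest and highest groups. It read 2740.2, 3529.9 and 2719.6 in rcSF3+serum, 2511, 2659 and 3118 in rcSF3, 2182, 2377 and 2239 in SF3+serum, and 1269, 1236 and 1661 in SF3 at E14. Its E7 values were 3155, 2795 and 2875 in rcSF3+serum, 2769.8, 2956 and 2569.8 in rcSF3, 1910.0, 1522 and 1497 in SF3+serum, and 1401, 1054 and 1104 in SF3. The rcSF3 arrays again lay wholly above the SF3 arrays, by 1.00 (SE 0.13, adjusted p 0.000231) at E14 and by 1.23 (SE 0.12, adjusted p 2.74e-06), 2.35-fold, at E7. Serum in SF3 raised it by 0.72 (SE 0.13, adjusted p 0.000993) at E14 and 0.47 (SE 0.12, adjusted p 0.00544) at E7. In rcSF3 the addition of serum gave 0.11 at E14 (adjusted p 0.57) and 0.09 at E7 (adjusted p 0.605), neither of them called. With serum present, rcSF3+serum lay above SF3+serum at E7 by 0.85 (SE 0.12, adjusted p 0.00018) on this probe set and by 0.65 (SE 0.10, adjusted p 0.000314) on the brighter one. At E14 the same differences were 0.39 for both, with adjusted p of 0.115 and 0.0881, and became calls with the culture number as a block (adjusted p 0.0110 and 0.0218). A negative interaction would mean a joint response smaller than the sum of its parts. For this probe set at E14 the interaction was −0.61 (SE 0.18, adjusted p 0.163) and was not called, with an adjusted p of 0.0150 under that block.

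PLS3, the bundler plastin-3, was raised by serum at both ages and, on one probe set at E7, lowered by rcSF3. It was among the dimmest members, and of the 15 kept probe sets its 2 had the widest spread between replicate arrays. The dimmer probe set read 196, 110.1 and 272 in rcSF3+serum, 59.6, 36 and 52.9 in rcSF3, 252, 269.8 and 276 in SF3+serum, and 119, 57.4 and 131 in SF3 in E14 cultures. In E7 cultures it read 175, 299.8 and 447 in rcSF3+serum, 64.2, 74.4 and 52.2 in rcSF3, 494, 329.9 and 412 in SF3+serum, and 164, 269 and 131 in SF3. All rcSF3 arrays and SF3 replicate 2 at E14 read below 94.5, the lowest mean signal kept at that age, and all 3 rcSF3 arrays at E7 read below 91.5, the lowest kept there. At E14 its mean log2 signal was 5.60 in rcSF3 and 6.59 in SF3, against 7.50 in rcSF3+serum and 8.05 in SF3+serum. The filter used the mean over all media of an age, so at E14 this probe set was kept largely through the media with serum. Its E14 serum differences are limited by that choice. Serum raised it in SF3 by 1.46 (SE 0.37, adjusted p 0.00945) at E14 and by 1.18 (SE 0.32, adjusted p 0.00952) at E7. In rcSF3 serum raised it by 1.90 (SE 0.37, adjusted p 0.00195) at E14 and by 2.18 (SE 0.32, adjusted p 0.000192) at E7, and the arrays with and without serum did not overlap at either age. With all signals below the filter level raised to it, these rcSF3 differences were 0.93 (adjusted p 0.0157) at E14 and 1.64 (adjusted p 0.000824) at E7.

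Conditioning alone moved this probe set the other way at E7. rcSF3 against SF3 was −1.51 (SE 0.32, adjusted p 0.00263) at E7, where the 3 rcSF3 arrays lay below the 3 SF3 arrays, and −0.97 (adjusted p 0.0246) with signals raised to the filter level. At E14 it was −0.99 (SE 0.37, adjusted p 0.107), with an adjusted p of 0.0378 once culture number was a block, and −0.27 with signals raised to the filter level. The brighter PLS3 probe set carries a suffix that marks probes which can match transcripts of more than 1 gene. It read 188, 144 and 266 in rcSF3+serum, 83.4, 124 and 86 in rcSF3, 205, 204 and 245 in SF3+serum, and 97.7, 154 and 100.2 in SF3 at E14. The E7 arrays gave 176, 281 and 319 in rcSF3+serum, 108, 147 and 112 in rcSF3, 478, 347 and 461 in SF3+serum, and 166, 303 and 155 in SF3. Serum raised it at E14 by 0.92 in SF3 (SE 0.27, adjusted p 0.024) and by 1.01 in rcSF3 (SE 0.27, adjusted p 0.0159), and at E7 by 1.10 in SF3 (SE 0.27, adjusted p 0.00532) and 1.05 in rcSF3 (SE 0.27, adjusted p 0.00928). Its rcSF3 differences were −0.25 at E14 (adjusted p 0.629) and −0.71 at E7 (adjusted p 0.0672, and 0.0328 with the culture number as a block). The E14 serum call in SF3 was lost without SF3+serum replicate 1 or 3 or SF3 replicate 1 or 3 (adjusted p 0.0511 to 0.0856), with no filter (adjusted p 0.0542) and in the unmoderated analysis of variance (adjusted p 0.0509), and that in rcSF3 without rcSF3 replicate 1 or 3 or rcSF3+serum replicate 3 (adjusted p 0.0509 to 0.0861).

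The summed signal of smooth muscle and myofibroblast markers was higher with serum in the same cultures, mainly through 1 gene, TAGLN. Of 7 such markers 4 were on the array, of which only TAGLN lay in the brighter 50%, while ACTA2, MYH11 and DES did not. These 3 averaged 6.23 to 57.9 per group and did not rise steadily with serum. ACTA2, for one, averaged 6.23 in E7 rcSF3+serum and 38.9 in E7 rcSF3. TAGLN is also in the list of contractile and SRF-MRTF target genes below. At E14 the sum of the 4 was 854 to 2022 in rcSF3+serum, 295 to 490.0 in rcSF3, 1584 to 1783 in SF3+serum and 613 to 847 in SF3. At E7 it was 1146 to 1684 in rcSF3+serum, 444 to 679 in rcSF3, 1977 to 2497 in SF3+serum and 477 to 929 in SF3. Macrophage and leukocyte markers, 6 of 7 on the array and 2 in the brighter 50%, were lower with serum in SF3 at E7, with overlapping ranges in rcSF3, and summed to 4345 to 4666 in rcSF3+serum, 4556 to 5144 in rcSF3, 3893 to 4311 in SF3+serum and 6288 to 7601 in SF3. Glial markers of Müller cells and astrocytes, 5 of 5 on the array and 3 in the brighter 50%, summed at E7 to 39135 to 41951 in rcSF3+serum, 45721 to 48287 in rcSF3, 44805 to 48308 in SF3+serum and 56013 to 61183 in SF3. Most of that sum was RLBP1, which is also counted among the RPE markers here. RLBP1 averaged 29778 in E7 rcSF3+serum, 37268 in rcSF3, 31287 in SF3+serum and 37980 in SF3. The sum of the 13 fibroblast and mesenchyme markers, all on the array and 8 in the brighter 50%, was 29557 to 33469 in SF3+serum and 26949 to 29251 in SF3 at E14, and 29443 to 36176 in SF3+serum and 26283 to 28797 in SF3 at E7. In rcSF3 cultures the ranges of that sum with and without serum overlapped at both ages. The part of any of these cells in the results was not tested.

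VIL1, villin, which bundles and also severs filaments in brush-border microvilli, differed most between ages. Its single probe set read 944, 1153 and 983 in rcSF3+serum, 677, 960.0 and 1104 in rcSF3, 773, 828 and 915 in SF3+serum, and 909.7, 1034 and 1402 in SF3 in E14 cultures. In E7 cultures it read 3397, 3217 and 2797 in rcSF3+serum, 3860.1, 5023 and 4545 in rcSF3, 2359, 2528 and 2423 in SF3+serum, and 4753, 4828 and 4237 in SF3. Every E7 array stood above every E14 array, and within E7 all arrays with serum stood below all without. E14 lay below E7, the difference being −2.31 in rcSF3 (SE 0.15, adjusted p 2e-10), where E7 was 4.97-fold higher, and −1.61 in rcSF3+serum (SE 0.15, adjusted p 1.13e-07), where E7 was 3.06-fold higher. In SF3+serum the difference of E14 from E7 was −1.54 (SE 0.15, adjusted p 1.08e-07), and in SF3 it was −2.07 (SE 0.15, adjusted p 4.57e-10). At E14 the serum differences were −0.39 in SF3 (SE 0.18, adjusted p 0.124) and 0.19 in rcSF3 (adjusted p 0.472). At E7 serum lowered VIL1, with differences of −0.92 in SF3 (SE 0.10, adjusted p 9.39e-06), 0.53-fold, and −0.51 in rcSF3 (SE 0.10, adjusted p 0.00144). The serum responses in SF3 at the 2 ages differed by 0.53 (SE 0.21), which did not pass (adjusted p 0.176).

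The differences of VIL1 between rcSF3 and SF3 were −0.29 (SE 0.18, adjusted p 0.338) at E14 and −0.05 (adjusted p 0.774) at E7. With serum, rcSF3+serum exceeded SF3+serum at E7 by 0.36 (SE 0.10, adjusted p 0.0182), the arrays of both media not overlapping. That call was lost without rcSF3+serum replicate 1 or 2 or SF3+serum replicate 1 or 3 (adjusted p 0.0532 to 0.0902). It was also lost in the unmoderated analysis of variance and with all 24 arrays in 1 model.

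EZR, ezrin, the linker between filament bundles and the microvillus membrane, rose with serum in E7 cultures. The brighter tested probe set read 1532, 1276 and 1413 in rcSF3+serum, 1306, 1316 and 1258 in rcSF3, 1486, 1190.1 and 1375 in SF3+serum, and 1244, 1375 and 997 in SF3 at E14. In E7 arrays the signal was 1789, 1875 and 1653 in rcSF3+serum, 1188, 883 and 964 in rcSF3, 1312, 1275 and 1393 in SF3+serum, and 927, 925 and 726 in SF3. The E7 arrays of rcSF3+serum were the highest of all 24 arrays, and both E7 media with serum stood above both without. At E14 the 4 media overlapped, and the serum difference in SF3 was 0.17 with a 95% interval of −0.09 to 0.43 (adjusted p 0.334). At E7 serum raised EZR by 0.63 in SF3 (SE 0.12, adjusted p 0.000868), 1.55-fold, and by 0.82 in rcSF3 (SE 0.12, adjusted p 0.000199), 1.76-fold. The E14 and E7 responses to serum in SF3 differed by −0.46 (SE 0.18, adjusted p 0.146).

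The dimmer EZR probe set read 178, 250.4 and 213 in rcSF3+serum, 159, 199 and 143 in rcSF3, 187, 231 and 179 in SF3+serum, and 169, 127 and 184 in SF3 at E14. At E7 it read 210.4, 243 and 217 in rcSF3+serum, 134, 139 and 136 in rcSF3, 196, 234 and 191 in SF3+serum, and 98.1, 109 and 158 in SF3. It too separated the E7 arrays by serum, by 0.80 in SF3 (SE 0.20, adjusted p 0.00647) and 0.71 in rcSF3 (SE 0.20, adjusted p 0.0165, and 0.0631 without E7 rcSF3+serum replicate 2). Conditioning on top of serum gave 0.42 (SE 0.12, adjusted p 0.0241) at E7 on the brighter probe set, a call lost without replicate 1 or 2 of either medium (adjusted p 0.0589 to 0.0902). The call was also lost in the unmoderated analysis of variance. On the dimmer probe set the same difference was 0.11 (adjusted p 0.746). Between SF3 cultures E14 exceeded E7 by 0.48 (SE 0.12, adjusted p 0.00409) on the brighter probe set. In rcSF3 E14 exceeded E7 by 0.37 (SE 0.12, adjusted p 0.0366), a call lost without any 1 of the 3 E14 arrays or of E7 replicates 2 and 3 (adjusted p 0.059 to 0.171), and after median centring, where it was 0.24 (adjusted p 0.245). It was lost too with no filter and in the unmoderated analysis of variance.

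WDR1, the cofilin partner AIP1, was lowest in E7 SF3 and higher in every other group. The brighter probe set read 2456, 1864 and 1742 in rcSF3+serum, 1798, 1755 and 2085 in rcSF3, 2071, 1768 and 1827 in SF3+serum, and 1464, 1265 and 1721 in SF3 in E14 cultures. In E7 cultures it read 1601, 1341 and 1435 in rcSF3+serum, 1675, 1635 and 1906 in rcSF3, 1194, 971 and 1107 in SF3+serum, and 784, 892 and 907 in SF3. At E7 the 3 rcSF3 arrays were above all other E7 arrays, and the 3 SF3 arrays below all others. rcSF3 raised WDR1 at E7 by 1.01 (SE 0.11, adjusted p 6.45e-06), 2.02-fold. Photoreceptor and neural retina markers, of which 11 of 16 were on the array and 5 in the brighter 50%, moved the other way in this comparison as a sum. The summed signal was 2041 to 2401 in E7 rcSF3 and 4696 to 5484 in E7 SF3. GNAT1, PDE6C, NEFL, NEFM, STMN2 and GAP43 lay outside the brighter 50%. Values of the single markers are not given here, so the genes that carry the sum are not named. The part of these markers in this and the other E7 results was not tested.

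The dimmer WDR1 probe set read 829, 840.4 and 825 in rcSF3+serum, 778, 799 and 864 in rcSF3, 908, 807 and 714 in SF3+serum, and 575, 566 and 744 in SF3 at E14. Its E7 values were 597, 640.4 and 559 in rcSF3+serum, 627, 702 and 886 in rcSF3, 534, 453 and 409 in SF3+serum, and 342, 412 and 403 in SF3. Its E7 rcSF3 difference was 0.93 (SE 0.14, adjusted p 0.00024), and its direction was that of the brighter probe set in all 17 comparisons set side by side. At E14 rcSF3 against SF3 gave 0.35 (SE 0.14, adjusted p 0.126) and 0.38 (SE 0.12, adjusted p 0.0662) on the 2 probe sets, which were calls with the culture number as a block (adjusted p 0.0127 and 0.0262). The E14 response to rcSF3 on the brighter probe set was smaller than the E7 response, a difference of −0.66 with a 95% interval of −1.04 to −0.29 (adjusted p 0.0289). It was not called without any 1 of E14 rcSF3 replicates 1 and 2, E14 SF3 replicates 1 and 3, E7 rcSF3 replicate 3 and E7 SF3 replicate 1 (adjusted p 0.0566 to 0.0924). On the dimmer one it was −0.54 (adjusted p 0.105, and 0.0353 with the culture number as a block).

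Serum in SF3 also raised WDR1, on one probe set at each age. At E14 it was the dimmer one that was called, at 0.37 (SE 0.12, adjusted p 0.0413), the brighter one giving 0.36 (SE 0.14, adjusted p 0.0696). At E7 the brighter one was called, at 0.34 (SE 0.11, adjusted p 0.0206), and the dimmer one gave 0.27 (SE 0.14, adjusted p 0.16). The E7 call was lost without SF3+serum replicate 1 or 3 or SF3 replicate 1 (adjusted p 0.0607 to 0.0884). The E14 call was lost without any 1 of rcSF3 replicate 2, rcSF3+serum replicates 2 and 3, SF3+serum replicates 1 and 2 and SF3 replicates 1 and 2 (adjusted p 0.051 to 0.161). It was also lost with no filter, after median centring, with the replicate number as a block across serum states and in the unmoderated analysis of variance (adjusted p 0.0507 to 0.0937). With serum in both media, rcSF3+serum exceeded SF3+serum at E7 by 0.42 (SE 0.11, adjusted p 0.0118) on the brighter probe set, and not past the threshold without rcSF3+serum replicate 1 or SF3+serum replicate 2 (adjusted p 0.0562 and 0.0678). The interaction of serum and rcSF3 on that probe set at E7 was −0.59 (SE 0.15, adjusted p 0.0567). It was called under 4 of the alternatives. These were a stricter filter (adjusted p 0.041), quantile normalization, and the replicate number as a block within or across serum states. For the E7 arrays with serum, neither block rests on a pairing that was shown.

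CFL2, cofilin-2, which severs aged filaments, gave opposite answers on its 2 probe sets. The brighter probe set, whose suffix marks probes common to alternative transcripts of a gene, read 5985, 5674 and 6016 in rcSF3+serum, 6295, 5903 and 5725 in rcSF3, 6236, 6436 and 6056 in SF3+serum, and 5056, 4567 and 5078 in SF3 at E14. The E7 arrays gave 5607, 5734 and 5191 in rcSF3+serum, 5255, 4965 and 5395 in rcSF3, 5017, 5465 and 5364 in SF3+serum, and 4253, 4185 and 4569 in SF3. At both ages the SF3 arrays were below those of the other 3 media. rcSF3 raised this signal by 0.29 (SE 0.07, adjusted p 0.016) at E14 and by 0.26 (SE 0.07, adjusted p 0.00931) at E7, and serum in SF3 raised it by 0.35 (SE 0.07, adjusted p 0.00202) at E14 and by 0.28 (SE 0.07, adjusted p 0.00415) at E7. The E14 call for rcSF3 was lost without rcSF3 replicate 1 or SF3 replicate 2 (adjusted p 0.0712 and 0.0794), and after median centring, where it was 0.17 (adjusted p 0.379). Its interaction at E14 was −0.37 (SE 0.10, adjusted p 0.111), with an adjusted p of 0.0499 once culture number was a block.

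The dimmer CFL2 probe set read 4203, 4427 and 4333 in rcSF3+serum, 4059.6, 4006 and 3907 in rcSF3, 4976, 4589 and 4595 in SF3+serum, and 5045, 5148 and 4791 in SF3 at E14. In E7 arrays the signal was 4036, 4092 and 4422 in rcSF3+serum, 4595, 4478 and 4439.7 in rcSF3, 4695, 5193 and 5045 in SF3+serum, and 5042, 5171 and 5421 in SF3. Here SF3 was at the upper end and the rcSF3 arrays lay below the SF3 arrays at both ages. rcSF3 against SF3 was −0.32 (SE 0.07, adjusted p 0.0064) at E14 and −0.21 (SE 0.07, adjusted p 0.0275) at E7, and rcSF3+serum against SF3+serum was −0.25 (SE 0.07, adjusted p 0.0142) at E7. The serum differences in SF3 were −0.08 (adjusted p 0.397) at E14 and −0.07 (adjusted p 0.45) at E7. The 2 probe sets had the same sign in 3 of 17 comparisons, and in the 3 where both were called the signs were opposite. At E7 the rcSF3 call was lost with no filter (adjusted p 0.0529), after median centring (adjusted p 0.172) and without replicate 2 or 3 of either medium (adjusted p 0.0615 to 0.1), and the call with serum without rcSF3+serum replicate 1 or 2 or SF3+serum replicate 2 or 3 (adjusted p 0.0538 to 0.0678). No direction is therefore given for the gene.

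**Figure D3:**
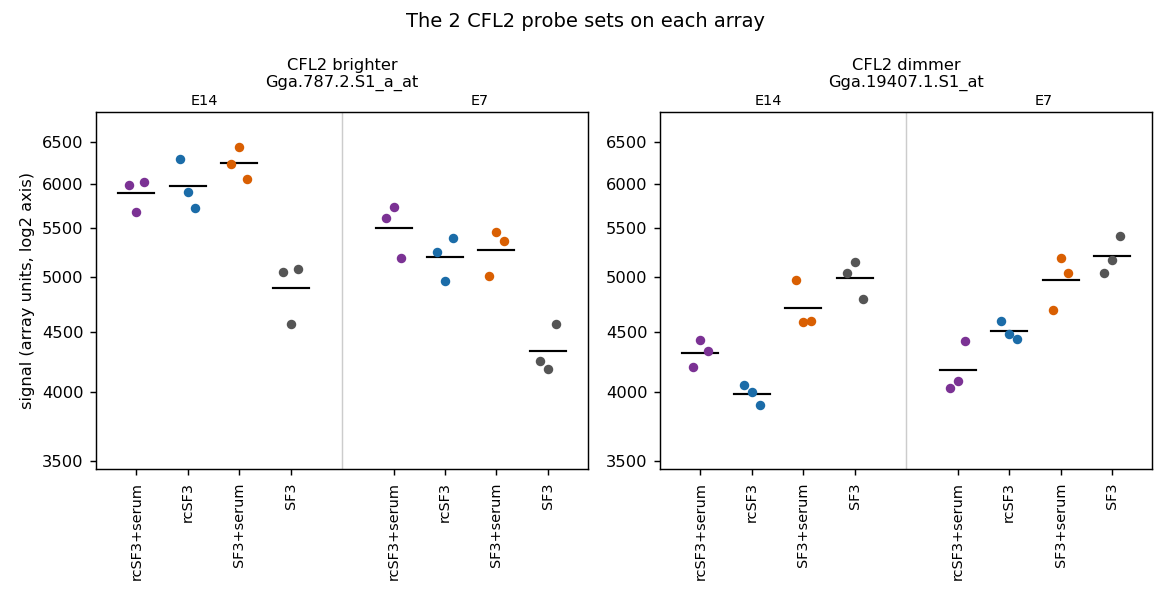
Signal, in arbitrary units, of the 2 CFL2 probe sets on the 24 arrays, with 1 dot per array and a black line at the geometric mean of each group. The brighter one was lowest in SF3 at both ages, and the dimmer one was highest there.

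CDC42, the GTPase that sets polarity and filopodia, fell with serum at both ages and in both apical media. Its single probe set read 13669, 14163 and 15078 in rcSF3+serum, 18194, 17848 and 18117 in rcSF3, 13283, 14052 and 14197 in SF3+serum, and 17682, 16187 and 16479.6 in SF3 in E14 cultures. In E7 cultures it read 16544, 15241 and 15538 in rcSF3+serum, 18785, 19399.5 and 19538 in rcSF3, 12757, 13264 and 13084 in SF3+serum, and 16033, 15227 and 16569.6 in SF3. At E14 all 6 arrays with serum lay below all 6 without. With serum at E14 the difference was −0.28 in SF3 (SE 0.06, adjusted p 0.00411) and −0.34 in rcSF3 (SE 0.06, adjusted p 0.00121). At E7 it was −0.29 in SF3 (SE 0.05, adjusted p 0.000824), 0.818-fold, and −0.29 in rcSF3 (SE 0.05, adjusted p 0.0013). At E7 rcSF3 raised it over SF3 by 0.27 (SE 0.05, adjusted p 0.00183), 1.21-fold, and rcSF3+serum raised it over SF3+serum by 0.27 (SE 0.05, adjusted p 0.00283). At E14 rcSF3 against SF3 was 0.11 with a 95% interval of −0.02 to 0.23 (adjusted p 0.308). The E14 and E7 responses to rcSF3 were not shown to differ, at −0.17 without serum (adjusted p 0.223) and −0.23 with it (adjusted p 0.126).

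RHOA, which drives stress fibres and myosin contraction, also fell with serum. The dimmest of its 3 probe sets read 8856, 9062 and 10147 in rcSF3+serum, 11585, 12504 and 11962 in rcSF3, 9959, 9721 and 10829 in SF3+serum, and 14142, 12602 and 13096 in SF3 at E14. At E7 it read 8815, 8597 and 8435 in rcSF3+serum, 10729.6, 11806 and 10580.2 in rcSF3, 8162, 8409.8 and 8189 in SF3+serum, and 9879, 9182 and 9486 in SF3. Arrays with serum lay below arrays without it in every pair of media at both ages. The serum difference in SF3 was −0.38 (SE 0.07, adjusted p 0.00151) at E14 and −0.20 (SE 0.06, adjusted p 0.0136) at E7, and in rcSF3 it was −0.36 (SE 0.07, adjusted p 0.0024) at E14 and −0.36 (SE 0.06, adjusted p 0.00049) at E7. Without E7 SF3 replicate 1 the E7 value in SF3 had an adjusted p of 0.0527, and after median centring it was −0.13 (adjusted p 0.129). The brightest RHOA probe set read 16071, 17299 and 17628 in rcSF3+serum, 21245, 20598 and 19784 in rcSF3, 18078, 17468 and 19896 in SF3+serum, and 22313, 20637 and 20291 in SF3 at E14. Its E7 values were 16205, 15528 and 15646 in rcSF3+serum, 18792, 19122 and 18599 in rcSF3, 14917, 15042 and 16597 in SF3+serum, and 17565, 16969 and 16133 in SF3. Its serum differences were called at E14 in SF3, at −0.19 (SE 0.07, adjusted p 0.0494), and in rcSF3, at −0.27 (SE 0.07, adjusted p 0.00821), and at E7 in rcSF3, at −0.25 (SE 0.06, adjusted p 0.00393). After quantile normalization none of the 3 was called, at −0.09 (adjusted p 0.247), −0.11 (adjusted p 0.143) and −0.10 (adjusted p 0.161).

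The E14 call for the brightest probe set in SF3 was also lost without any 1 of 9 of the 12 E14 arrays (adjusted p 0.0538 to 0.177), the exceptions being SF3+serum replicate 3 and rcSF3+serum replicates 1 and 3. With quantile normalization counted, it was lost under 6 alternatives that kept all arrays. The middle RHOA probe set read 11259, 13536 and 13299 in rcSF3+serum, 13560.3, 13543 and 15330.1 in rcSF3, 13667, 14132 and 14556 in SF3+serum, and 17353, 15672 and 14612 in SF3 at E14. The E7 arrays gave 11116, 10684 and 10497 in rcSF3+serum, 12778, 15088 and 13278 in rcSF3, 10035, 8842 and 9542 in SF3+serum, and 12228, 12522 and 11999 in SF3. This probe set has the suffix of shared probes, as one of PLS3 does. Its serum differences at E14 were −0.17 in SF3 (adjusted p 0.167) and −0.16 in rcSF3 (adjusted p 0.195), and at E7 serum lowered it, with differences of −0.37 in SF3 (SE 0.07, adjusted p 0.000713) and −0.35 in rcSF3 (SE 0.07, adjusted p 0.00178). The 3 RHOA probe sets shared the sign of the difference in 14 to 16 of 17 comparisons, taken pair by pair.

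Conditioning and RHOA gave a difference between ages. On the dimmest probe set, rcSF3 against SF3 was −0.14 (SE 0.07, adjusted p 0.244) at E14 and 0.21 (SE 0.06, adjusted p 0.0151) at E7, and the difference of the E14 from the E7 response was −0.36 with a 95% interval of −0.54 to −0.17 (adjusted p 0.0188). It was lost without any 1 of E14 rcSF3 replicate 1, E14 SF3 replicate 1, E7 rcSF3 replicate 2 and E7 SF3 replicate 2 (adjusted p 0.0517 to 0.065), and the E7 response itself without E7 rcSF3 replicate 2 or E7 SF3 replicate 2 (adjusted p 0.0645 and 0.0736). The same differences of response were −0.33 (adjusted p 0.091) on the middle one and −0.19 (adjusted p 0.197) on the brightest probe set.

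CDC42 and RHOA are among the brightest signals of these arrays, and the bright end of the distribution was lower with serum in rcSF3 at both ages and in SF3 at E7, while in SF3 at E14 the ranges overlapped. The 99th percentile of signal at E14 was 11325 to 12299.8 in rcSF3+serum, 12463 to 12839.7 in rcSF3, 11976 to 12470.3 in SF3+serum and 12189 to 12990.2 in SF3. At E7 it was 11464 to 11937 in rcSF3+serum, 12043 to 12107 in rcSF3, 10768 to 11489 in SF3+serum and 12049 to 12399 in SF3. After quantile normalization, which makes this percentile equal on all arrays, the CDC42 serum difference in SF3 was −0.20 at E14 and −0.17 at E7, both called. In rcSF3 it came to −0.16 (adjusted p 0.0157) at E14 and −0.14 (adjusted p 0.0282) at E7, still called and smaller by more than 1.5 times than before that normalization. The ratio of 3′ to 5′ actin control probes, a measure of how complete the labelled RNA was, also differed by serum, averaging 0.32 ± 0.05 log2 units in E14 rcSF3+serum, 0.69 ± 0.08 in E14 rcSF3, 0.40 ± 0.07 in E14 SF3+serum and 0.75 ± 0.03 in E14 SF3 (SD, n = 3 each). In E7 cultures it averaged 0.27 ± 0.10 in rcSF3+serum, 0.63 ± 0.10 in rcSF3, 0.37 ± 0.06 in SF3+serum and 0.75 ± 0.12 in SF3 (SD, n = 3 each), while the GAPDH ratio stayed between −0.07 and 0.06 in all groups. The part of either in the serum results was not tested.

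Ages were compared within each medium, E14 against E7, in one model of all 24 arrays. Of the 15 probe sets 2 were higher and 2 lower at E14 in rcSF3 (background 22.9%), 3 higher and 1 lower in rcSF3+serum (background 18.3%), 8 higher and 2 lower in SF3+serum (background 28.2%), and 8 higher and 2 lower in SF3 (background 35%). VIL1 was lower at E14 in all 4 media. In SF3+serum and SF3 all RHOA and WDR1 probe sets were higher at E14. For the brighter WDR1 probe set the differences were 0.79 (SE 0.13, adjusted p 5.52e-05) in SF3+serum and 0.78 (SE 0.13, adjusted p 4.59e-05) in SF3, against 0.46 (SE 0.13, adjusted p 0.0134) in rcSF3+serum and 0.11 (adjusted p 0.571) in rcSF3. For the dimmest RHOA probe set they were 0.30 (adjusted p 0.00101) in SF3+serum and 0.48 (adjusted p 3.13e-06) in SF3, against 0.12 in both rcSF3+serum (adjusted p 0.214) and rcSF3 (adjusted p 0.167). In rcSF3+serum the middle RHOA probe set was called higher at E14, at 0.23 (adjusted p 0.0386). That call was lost without any 1 of 5 arrays (adjusted p 0.0543 to 0.174) and under 4 alternatives that kept all arrays. The dimmer WDR1 probe set was called there too, at 0.48 (adjusted p 0.0156). It was not called without E7 replicate 3 (adjusted p 0.0659), nor under 2 alternatives that kept all arrays. The call of the brighter WDR1 probe set in rcSF3+serum was lost without E14 replicate 1 or E7 replicate 2 (adjusted p 0.0677 and 0.0984), and after median centring, where it was 0.26 (adjusted p 0.239).

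Of the other members, PLS3 on the brighter probe set was lower at E14, with differences of −0.97 (SE 0.28, adjusted p 0.0124) in SF3+serum and −0.79 (SE 0.28, adjusted p 0.0321) in SF3. The value in SF3 was not called without E14 SF3 replicate 1 or 3 or E7 SF3 replicate 2 (adjusted p 0.104 to 0.221), nor under 5 alternatives that kept all arrays (adjusted p 0.051 to 0.0752). This brighter PLS3 probe set is the one with the suffix of shared probes, and the dimmer one was called in neither medium. FMN1 on the brighter probe set was higher at E14 by 0.33 in SF3+serum (SE 0.11, adjusted p 0.0342) and in SF3 (SE 0.11, adjusted p 0.0258). Those calls were lost without replicate 2 or 3 of either age in SF3+serum (adjusted p 0.0703 to 0.17), and without E14 replicate 1 or 3 or E7 replicate 1 in SF3 (adjusted p 0.0539 to 0.234). With the replicate number as a block across serum states neither was called, at 0.27 (adjusted p 0.176) in SF3+serum and 0.28 (adjusted p 0.145) in SF3. The call in SF3+serum was also lost with no filter, after median centring and in the unmoderated analysis of variance. The dimmer FMN1 probe set was higher at E14 in SF3+serum by 0.47 (adjusted p 0.00822), a call kept under every alternative, and was not called in SF3. The brighter CFL2 probe set was higher at E14 in SF3+serum by 0.24 (adjusted p 0.00625), also under every alternative, and the dimmer one was not called there. In rcSF3 both CFL2 probe sets were called, with opposite signs. The brighter one was higher at E14 by 0.20 (adjusted p 0.0263) and the dimmer one gave −0.17 (adjusted p 0.0358). Both of these calls were lost with no filter and with the replicate number as a block across serum states. CDC42 was called in none of the 4 media, with differences between −0.14 and 0.09 and adjusted p of 0.065 to 0.293. Its value in rcSF3+serum was called lower at E14 under a stricter filter (adjusted p 0.0404), after quantile normalization (adjusted p 0.0115), in the unmoderated analysis of variance (adjusted p 0.0312) and after median centring, where it was −0.34 (adjusted p 0.00109). In rcSF3 it was called lower at E14 after quantile normalization, at −0.12 (adjusted p 0.0334), and after median centring, at −0.22 (adjusted p 0.0284). The photoreceptor and neural retina marker sum was 1682 to 2303 in E14 SF3+serum and 3852 to 4893 in E7 SF3+serum, and 2089 to 3382 in E14 SF3 and 4696 to 5484 in E7 SF3. In rcSF3+serum it was 1520.2 to 2018 at E14 and 1969 to 2752 at E7, and in rcSF3 1756 to 2395 at E14 and 2041 to 2401 at E7. Its part in the age differences was not tested.

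Differences between ages in the responses themselves were few. For the response to rcSF3 without serum 2 of the 15 were called, both lower at E14 (background 5.21%), the WDR1 and RHOA probe sets given above. For the response to rcSF3 with serum limma called 0 (background 1.5%), with 3 at an unadjusted p under 0.05, and for the response to serum in SF3 it called 0 (background 3.61%), with 2 at an unadjusted p under 0.05. The unmoderated analysis of variance called 0 in both. These backgrounds are shares at the adjusted threshold, and none is given here for the unadjusted counts.

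**Figure D4:**
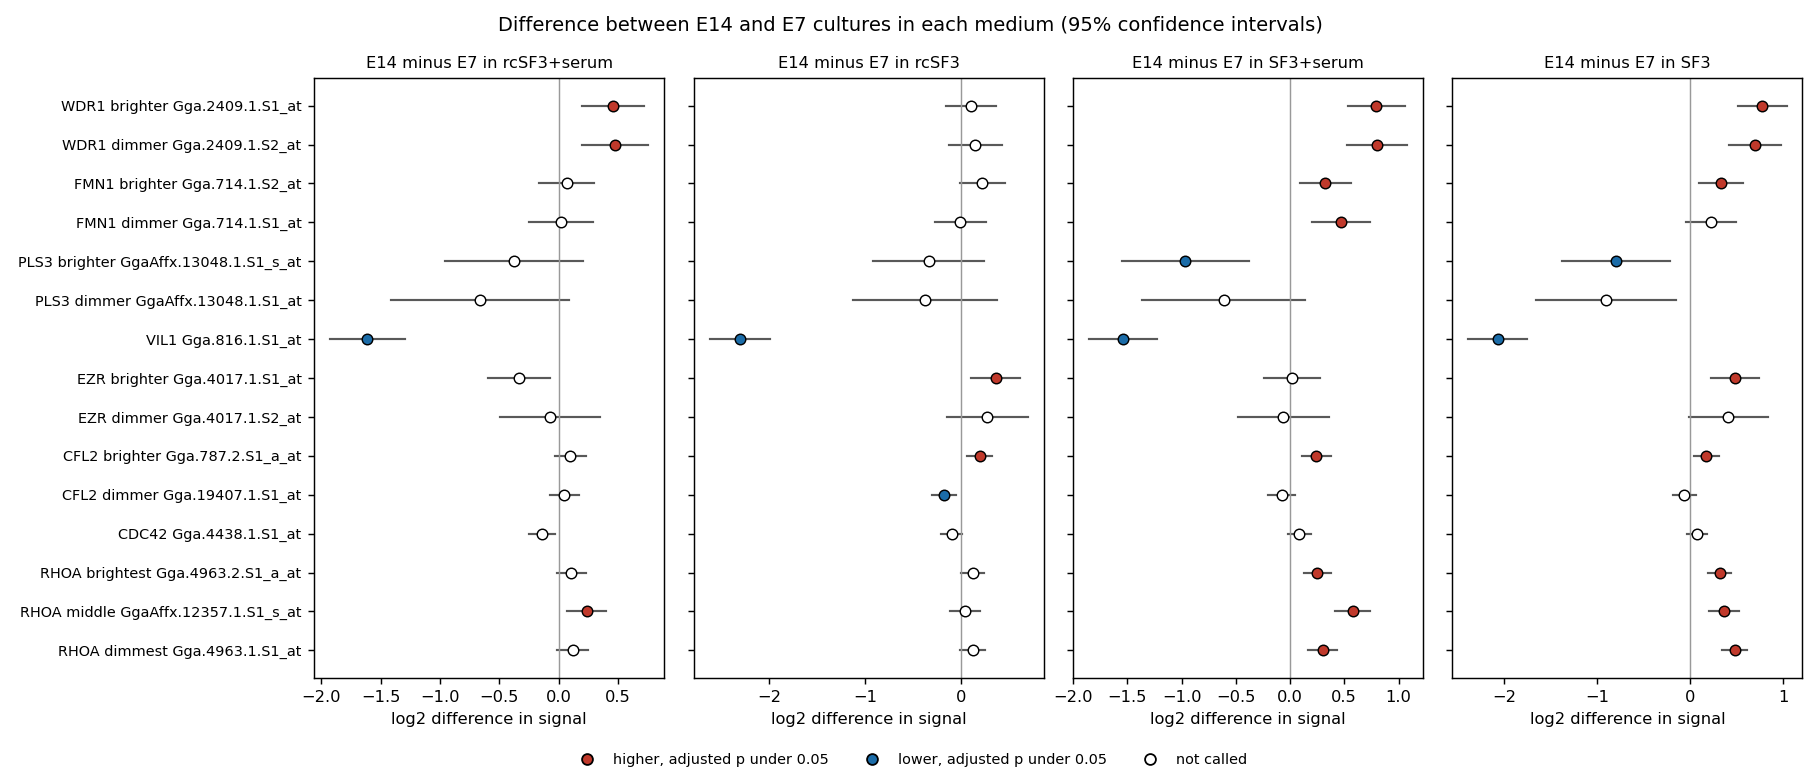
Log2 difference of signal, E14 minus E7, of the 15 kept probe sets in each of the 4 media. Dots are the fitted differences, bars their 95% confidence intervals, red marks a call as higher at E14, blue a call as lower and white no call. VIL1 stood between −2.31 and −1.54 in the 4 media, while WDR1 and RHOA stood farther above 0 in SF3+serum and SF3 than in rcSF3.

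Over the 8 groups the members spread by very different amounts. VIL1 spanned 2.46 log2 units, 5.50-fold, between its lowest group, E14 SF3+serum, and its highest, E7 SF3, and its order of groups had 4 of 7 neighbouring pairs whose arrays overlapped. PLS3 on the brighter probe set spanned 2.14 log2 units between E14 rcSF3 and E7 SF3+serum, with 6 of 7 neighbours overlapping. FMN1 on the brighter probe set spanned 1.60 and WDR1 on the brighter probe set 1.22, both between E7 SF3 and E14 rcSF3+serum, with 5 of 7 neighbours overlapping for each. EZR on the brighter probe set spanned 1.05 between E7 SF3 and E7 rcSF3+serum, with 6 of 7 overlapping. CDC42 spanned 0.56 between E7 SF3+serum and E7 rcSF3, and with 3 of 7 neighbours overlapping its groups were the best separated. CFL2 on the brighter probe set spanned 0.53 with 7 of 7 overlapping, and RHOA on the brightest probe set 0.44 with 6 of 7.

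For the 5 members that spanned at least 1 log2 unit, the genes with the most similar pattern were found by Pearson's r over the 8 group means, among 5954 or 5955 other probe sets with 1 symbol and a like span. This is a description over 8 points that share the arrays and their scaling. FMN1 was followed most closely by GNAL (r = 0.991), MATN4 (0.985) and NDUFA5 (0.9702). VIL1 was followed by DNMT3B (0.9944), ST6GALNAC5 (0.9857) and TMEM201 (0.9729). DNMT3B averaged 20.4 to 33.7 in the 4 E14 groups, below the 94.5 kept at that age, and 69.0 to 137 in the E7 groups, so its place rests on signals near or below the filter level. PLS3 was followed by CHPF (0.9907), ZSWIM5 (0.9888) and HTRA2 (0.9861). WDR1 was followed by MCCC2 (0.9828), ITPR2 (0.9824) and RNF7 (0.9783), and EZR by CHADL (0.9653), SLC25A13 (0.9571) and ACSS3 (0.9514). GNAL averaged 774 in E14 SF3 and 549 in E7 SF3, and between 1038 and 1679 in the other 6 groups, as FMN1 was lowest in SF3.

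The rest of the actin machinery was followed with 10 lists of 212 symbols in all, of which 173 were on the array and 144 had a kept probe set. With serum in SF3, 32 of 142 rose and 23 fell at E14, 38.7% called where 23.7% of all probe sets were, and 46 rose and 27 fell at E7, 51.4% called where 38.3% were. With rcSF3 against SF3, 4 rose and 11 fell at E14 (10.6% called where 9.57% of all probe sets were) and 22 rose and 22 fell at E7 (31% where 26.8% were). In rcSF3+serum against rcSF3, 26 rose and 20 fell at E14 (32.4% where 22.8% were) and 39 rose and 30 fell at E7 (48.6% where 30.8% were). Tropomyosin, contractile and SRF-MRTF target genes, which respond to the pool of free actin, rose in 10 and fell in 2 of 18 with serum at E14, with a median of 0.41 where all probe sets had −0.02. At E7 they rose in 9 and fell in 1 of 18, with a median of 0.34 where all probe sets had −0.04.

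Among them the focal adhesion protein zyxin (ZYX) averaged 5186 ± 581 in SF3+serum and 3223 ± 205 in SF3 at E14 (SD, n = 3 each), a difference of 0.68 (SE 0.09, adjusted p 0.00014), and rose by 0.82 (SE 0.08, adjusted p 3.58e-06) at E7. Calponin-2 (CNN2), which stabilises filaments, rose by 1.69 (SE 0.22, adjusted p 0.000103) at E14 and by 1.58 (SE 0.19, adjusted p 2.2e-05) at E7. Of the bundlers, espin (ESPN), which builds the parallel bundles of microvilli and stereocilia, averaged 7041 ± 1594 in SF3+serum and 1824 ± 358 in SF3 at E14 (SD, n = 3 each). It rose by 1.94 (SE 0.18, adjusted p 6.21e-06) at E14 and by 2.19 (SE 0.13, adjusted p 8.09e-08) at E7. Of the membrane linkers, SLC9A3R2, a scaffold that binds ezrin, rose by 0.88 (SE 0.14, adjusted p 0.000557) at E14 and by 2.07 (SE 0.17, adjusted p 9.07e-07) at E7. The pointed-end cap tropomodulin-1 (TMOD1) moved the other way with serum, by −1.69 (SE 0.22, adjusted p 0.000108) at E14 and −1.10 (SE 0.12, adjusted p 8.72e-06) at E7. Cytoplasmic beta-actin (ACTB) itself rose by 0.22 (SE 0.07, adjusted p 0.0311) at E14 and 0.32 (SE 0.07, adjusted p 0.00171) at E7. The 3′ to 5′ ratio of the actin control probes was lower with serum at both ages, as given above. The part of that ratio in the ACTB rise was not tested.

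With rcSF3 at E7 the filament-severing protein gelsolin (GSN) averaged 4913 ± 170.2 in rcSF3 and 3135 ± 271 in SF3 (SD, n = 3 each), a rise of 0.65 (SE 0.08, adjusted p 2.24e-05). The monomer-binding cyclase-associated protein CAP2 rose by 0.94 (SE 0.10, adjusted p 7.55e-06), while beta-tropomyosin (TPM2) fell by 1.00 (SE 0.12, adjusted p 2.91e-05). At E14 TMOD1 fell by 1.35 (SE 0.22, adjusted p 0.00163) with rcSF3, and CORO1C, a coronin that binds filaments at the cell cortex, rose by 0.41 (SE 0.09, adjusted p 0.00699). Between ages in SF3, 38 of 144 list genes were higher and 29 lower at E14 (46.5% called where 35% of all probe sets were). CAP2 was higher by 1.45 (SE 0.09, adjusted p 3.07e-11) and the Arp2/3 subunit ACTR3, a part of the complex that starts branched filaments, by 0.78 (SE 0.08, adjusted p 1.07e-07). In rcSF3 29 were higher and 20 lower at E14 (34% where 22.9% were).

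**Figure D5:**
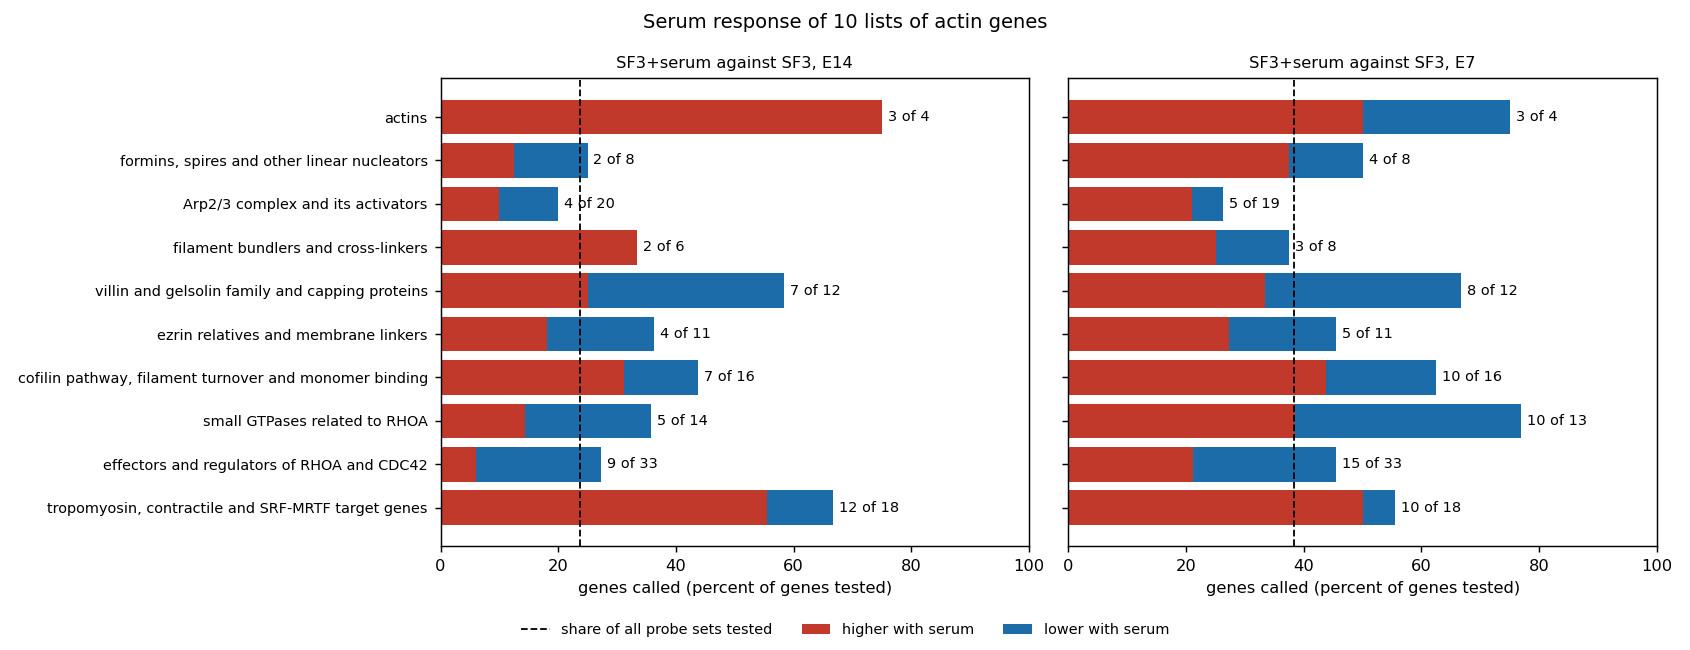
Percent of the tested genes of each of the 10 actin lists that were called higher or lower in SF3+serum against SF3, at E14 and at E7. Bars are stacked by direction and the dashed line is the percent of all probe sets tested that were called, 23.7% at E14 and 38.3% at E7. The contractile and SRF-MRTF targets were called mostly as higher, 10 of 18 at E14 and 9 of 18 at E7.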

How the data were processed

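RNA of cultured chick RPE was labelled by 3′ in vitro transcription and hybridised to Affymetrix arrays, 1 per pool of filters from one plating. The deposited values are linear intensities per probe set, which the authors made with GCOS and scaled to a common trimmed mean (2% trimmed at each end). The GCOS version and its background step were not given in the sources used here. No further normalization was applied. Of 38535 probe sets 96 controls were left out, and log2 intensities were tested on the 19219 probe sets (50%) with the highest mean at each age, 20021 at either age for comparisons of ages. limma 3.58.1 in R 4.3.3 (lmFit, eBayes with trend, two-sided, Benjamini-Hochberg, threshold 0.05) was fitted to 12 arrays per age for media and to 24 arrays for ages, with 95% intervals. It was tested on simulated data. Figures used Python 3.11.15, pandas 2.3.3 and matplotlib 3.10.9. Gene symbols came from the platform table, with 1 symbol for 27168 probe sets, several for 177 and none for 11094. All 8 genes were found in the RefSeq table of GRCg7b. The number of arrays limits the precision.

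Named genes were every member probe set, up to 4 genes of lowest p per pathway list, and the 3 genes of most similar pattern. The members and lists were chosen with earlier results of these data known, and the study itself named some members from these arrays. Each alternative in the closing section was fixed with them. Deviations of same-numbered arrays from their group means correlated at 0.131 to 0.27 (E14 with serum), 0.147 to 0.211 (E14 without), 0.143 to 0.199 (E7 without) and 0.0361 to 0.131 (E7 with serum) within a serum state, over 3 pairs each, and at −0.115 to 0.0952 across serum states. The numbers were therefore taken to pair arrays within a serum state, except at E7 with serum. The block within each serum state was still fitted to all arrays, so its E7 results with serum rest on a pairing that was not shown.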

Additional observations from a re-analysis of the deposited data

Results flagged for a closer look

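Of the results for these genes, 2 differed between ages in the response to rcSF3 without serum, by a limma test of the difference itself on all 24 arrays. For WDR1, on the brighter probe set, the response was 0.35 at E14 and 1.01 at E7, a difference of −0.66 (SE 0.18, adjusted p 0.0289). For RHOA, on the dimmest of 3 probe sets, it was −0.14 at E14 and 0.21 at E7, a difference of −0.36 (SE 0.09, adjusted p 0.0188). Without the arrays named with these results in the report, neither difference passed, with adjusted p of 0.0566 to 0.0924 for WDR1 and 0.0517 to 0.065 for RHOA. Over the alternatives that left no array out, the WDR1 difference kept its direction in each and lost its call in the unmoderated analysis of variance, while that of RHOA was called in each. The 2 genes share the 12 arrays without serum, so these are not independent results.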

How the results depend on the processing

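No called difference of a member changed direction under any alternative. Counts of members called that moved by over 1.5 times, or away from 0, were these. With the replicate block within each serum state, calls came to 7 for rcSF3 against SF3 at E14, 2 for rcSF3+serum against SF3+serum at E14, 2 for the interaction at E14 and 1 for the interaction at E7. That E7 interaction, where 4.92% of all probe sets were called, includes the arrays with serum, whose numbers were not taken to pair. With the replicate number as a block across serum states, where numbers did not pair, they came to 1 for the interaction at E7, 2 for E14 against E7 in rcSF3 and 2 in rcSF3+serum. With all 24 arrays in 1 model they were 1 for rcSF3+serum against SF3+serum and 1 for the interaction, both at E14. The interaction at E7 had 1 call, WDR1, under a stricter filter (25% kept) and 1 after quantile normalization. No filter left 1 call for E14 against E7 in rcSF3. Median centring gave 2 for rcSF3+serum against SF3+serum at E14, and 6 without serum and 3 with serum for the E14 response to rcSF3 minus that at E7, and the unmoderated analysis of variance gave 1 for that without serum. Smaller moves included 10 calls in place of 9 for rcSF3 against SF3 at E7 with the block within each serum state, where 30.9% of all probe sets were called. The same block gave 10 in place of 7 for rcSF3+serum against SF3+serum at E7 (25.7% of all probe sets), though the numbers were not taken to pair there. For SF3+serum against SF3 at E14, with 9 calls, there were 6 with no filter, 6 in the unmoderated analysis of variance and 10 with all 24 arrays in 1 model. Apart from what each alternative's construction shows, the cause was not tested. Of the alternatives that kept all arrays, the share of all probe sets called is given only for the block within each serum state. Leaving out 1 array at a time gave 3 to 5 calls for rcSF3 against SF3, 0 to 1 for rcSF3+serum against SF3+serum, 6 to 10 for SF3+serum against SF3, 4 to 6 for rcSF3+serum against rcSF3, 0 to 1 for the interaction and 9 to 12 for any difference at E14. Over all probe sets tested the calls were, in the same order, 1043 to 1857, 107 to 521, 3354 to 4621, 3168 to 4414, 24 to 99 and 6762 to 7423. At E7 the same counts of members were 7 to 10, 3 to 8 (3 without rcSF3+serum replicate 1), 10 to 12, 9 to 10, 0 to 0 and 15 to 15. Those over all probe sets tested were 4071 to 5128, 2326 to 4154, 6082 to 7533, 4431 to 5906, 197 to 545 and 10714 to 11336. For E14 against E7 the counts of members were 1 to 4 in rcSF3, 2 to 5 in rcSF3+serum, 9 to 10 in SF3+serum and 7 to 12 in SF3, and for the response to rcSF3 without serum 0 to 2. Those over all probe sets tested were 3549 to 4637, 2546 to 3708, 4444 to 5721, 5660 to 7077 and 762 to 1116. Of single values called, 817 stayed called and 61 did not under alternatives that kept all arrays, and 1603 and 113 when 1 array was left out. Signal over background limits PLS3, whose rcSF3 arrays lay near the filter level, and the untested EZR probe set.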
